A study of Mus musculus with 23 samples.

Results

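The miR-378 family was described in the liver of 23 male mice by the 5 mature miRNAs of the count table that carry its name, of 1218 mature miRNAs in all. These are mmu-miR-378a-3p, mmu-miR-378a-5p, mmu-miR-378b, mmu-miR-378c and mmu-miR-378d, written below without the species prefix. They were chosen by name and not by their values. All 5 had enough counts to be tested. The mice were of the third generation of C57bl/6J lineages bred on a growing diet with a small supplement of oil. The control lineage received high-oleic sunflower oil and the omega 3 lineage received fish oil rich in eicosapentaenoic acid (EPA). The reference group (8 mice, labelled STD_Cont) came from the control lineage and was fed a low-fat diet. HFoleic (8 mice, labelled HFD_Cont) came from the same lineage, and HFepa (7 mice, labelled HFD_O3) from the omega 3 lineage, and both were fed a high-fat, high-sucrose diet. HFoleic vs. reference therefore compares diets within 1 lineage, HFepa vs. HFoleic compares lineages on 1 diet, and HFepa vs. reference changes both at once. Whole liver was used, so fewer cells of a type and less miRNA per cell cannot be told apart.

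The hairpin of miR-378a lies in the first intron of Ppargc1b, the gene of the transcriptional coactivator PGC-1β, which drives mitochondrial biogenesis and fatty acid oxidation. Both arms of the hairpin give a mature miRNA. The 3p arm is known to target carnitine O-acetyltransferase and the 5p arm the Mediator subunit MED13, and mice without both arms were reported to be protected from obesity on a high-fat diet. In liver, miR-378 is also known to act on insulin signalling through the PI3 kinase subunit p110α. The messenger RNA of Ppargc1b and of these targets was not analysed here.

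The mature sequences are printed because the members differ by a few bases, which bears on how reads could be divided between them. RefSeq sequences on GRCm38.p6 were matched for 3 of the 5 members. They are written 5′ to 3′ with the seed, bases 2 to 8, in capitals.
miR-378b: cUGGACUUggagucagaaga
miR-378c: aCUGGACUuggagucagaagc
miR-378d: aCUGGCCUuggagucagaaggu
They map to chr11:88352839-88352858 (plus strand), chr14:46954905-46954925 (minus strand) and chr10:126710355-126710376 (minus strand) and are 20, 21 and 22 bases long. Counted from 1 at the 5′ end of miR-378c, miR-378b starts 1 base later and has the change C21A, and miR-378d has the changes A6C and C21G. A run of 14 bases, CUUGGAGUCAGAAG, is common to the 3 sequences. Of the 1045 mature miRNAs of the table with a matched RefSeq sequence, which include these 3, 0 others hold it. The arms of miR-378a are not among the 1045, so they were not searched for the run. The run shared by miR-378b and miR-378c is 19 bases long. Because of the shifted start and of A6C, the 3 members have 3 different seeds, and none of these seeds occurs in another matched miRNA of the table. The arms of miR-378a, with the main member miR-378a-3p, had no matched sequence. Whether either arm shares a seed with these 3 was therefore not examined. How reads that match more than 1 member were counted is not given in the sources used here, so the division of counts among the members is uncertain.

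In the GRCm38 annotation the hairpin of miR-378a was in intron 1 of Ppargc1b on chromosome 18, on the same strand as the gene. A predicted miRNA gene, Gm25301, overlaps it on the other strand. The other hairpins are elsewhere in the genome. Mir378b (chromosome 11, 88352773 to 88352864, plus strand) is in intron 11 of Msi2, on the opposite strand to that gene, and Mir378c (chromosome 14, 46954830 to 46954928, minus strand) is in an intron of Samd4, also on the opposite strand. Mir378d (chromosome 10, 126710282 to 126710391, minus strand) overlaps no other annotated gene, and the nearest coding gene, Atp23, is 158036 bp away. Thus 2 of the 5 mature miRNAs, the arms of miR-378a, belong to the Ppargc1b intron, and the other 3 share its name but not its locus.

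Levels are given as CPM, counts rescaled to a common library total, after scaling by TMM, a factor that balances the bulk of miRNAs between libraries. A read covers a whole mature miRNA, so no length enters the CPM. miR-378a-3p was the main member, with 7921 CPM in its lowest library and 13038 CPM in its highest, and it ranked between 15 and 20 among all miRNAs of a library. miR-378c followed with 1013 to 1597 CPM, miR-378d with 157 to 269 CPM, miR-378a-5p with 45.2 to 91.8 CPM and miR-378b with 4.06 to 9.24 CPM. These ranges did not overlap, and the order of the 5 members was the same in the 23 libraries. miR-378b rested on 21 to 53 counts a library, while miR-378a-3p rested on 31268 to 81949. Of the counts of the 4 members other than miR-378a-5p, miR-378a-3p held 85.7% to 89.1%, miR-378c 9.32% to 12.3%, miR-378d 1.49% to 2.12% and miR-378b 0.0431% to 0.0857%.

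**Figure D1:**
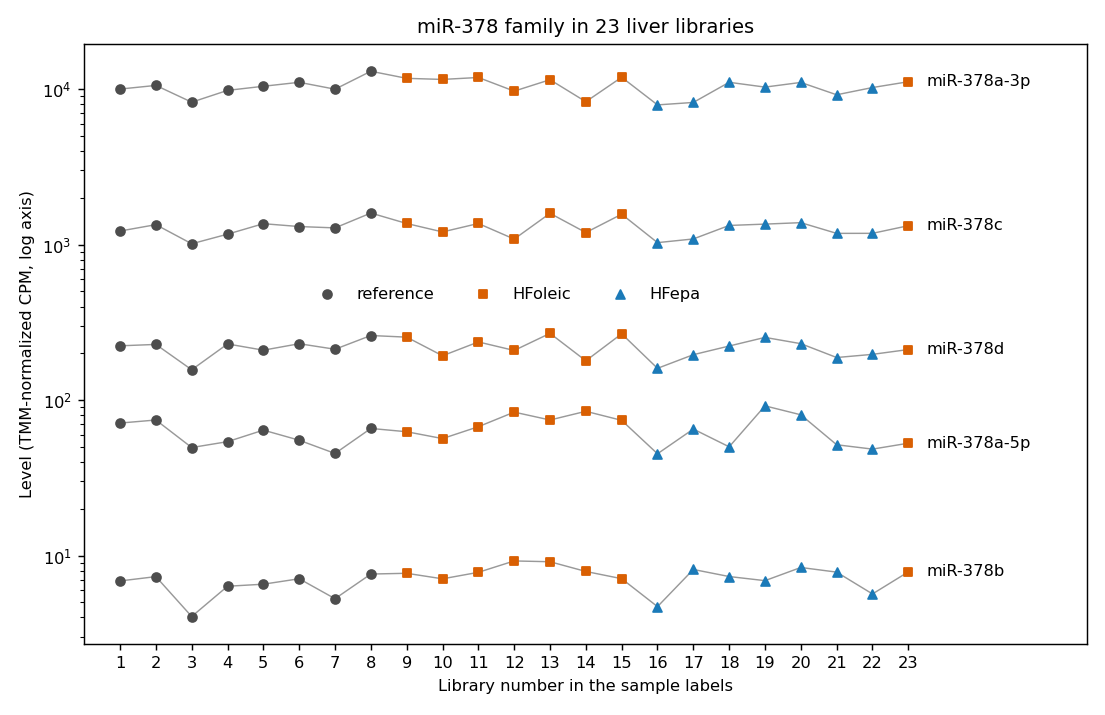
Level of each family member in each of the 23 liver libraries, as TMM-normalized CPM on a log axis against the library number in the sample labels, with grey circles for reference, orange squares for HFoleic and blue triangles for HFepa. The 5 members keep their order in the 23 libraries, from miR-378a-3p at 7921 CPM or more to miR-378b at 9.24 CPM or less, and the 3 groups overlap for each member.

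The spread between mice was far above counting error for 4 of the 5 members. The coefficient of variation over the 23 libraries was 13.0% for miR-378a-3p, where counting alone gives 0.435%. It was 12.7% against 1.23% for miR-378c, 14.4% against 3.00% for miR-378d and 21.4% against 5.59% for miR-378a-5p. For miR-378b it was 17.9% against 16.7%, so its values differed between libraries by little more than counting error. The counting figures take each read as an independent molecule, which reads copied by PCR are not.

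miR-378a-3p, the arm that targets carnitine O-acetyltransferase, had 8245 CPM in the lowest reference library, a median of 10226 and 13038 in the highest. In HFoleic its lowest, median and highest levels were 8303, 11526 and 11927 CPM. In HFepa they were 7921, 10244 and 11070 CPM. The 3 groups overlapped over most of their ranges, with means of 10399 ± 1348 (SD, n = 8), 10973 ± 1293 (SD, n = 8) and 9715 ± 1290 CPM (SD, n = 7). The log2 fold change was 0.08 ± 0.09 (SE) in HFoleic vs. reference, with an adjusted p of 0.609 by edgeR's quasi-likelihood test, and -0.10 ± 0.10 (SE) in HFepa vs. reference, with an adjusted p of 0.565. In HFepa vs. HFoleic it was -0.18 ± 0.10 (SE), with an unadjusted p of 0.0782 and an adjusted p of 0.901. The 95% intervals of the difference in level ran from -7.51% to 20.4%, from -18.5% to 7.09% and from -22.8% to 1.50% in the same order.

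As a share of all counts of a library, without TMM, miR-378a-3p took 0.979% to 1.28% in reference, 0.782% to 1.20% in HFoleic and 0.766% to 1.16% in HFepa. The lowest shares were in library 16 of HFepa and library 14 of HFoleic. These shares overlapped between the groups as the CPM did.

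miR-378a-5p, the opposite arm of the same hairpin, had lowest, median and highest levels of 45.4, 59.7 and 74.5 CPM in reference. In HFoleic they were 52.8, 70.8 and 84.7 CPM. In HFepa they were 45.2, 51.6 and 91.8 CPM. HFepa held both the lowest and the highest of the 23 values, in libraries 16 and 19. The means were 60.0 ± 10.5 (SD, n = 8), 69.6 ± 11.8 (SD, n = 8) and 61.8 ± 18.1 CPM (SD, n = 7). The log2 fold change was 0.21 ± 0.15 (SE, adjusted p = 0.355) in HFoleic vs. reference, 0.04 ± 0.16 (SE, adjusted p = 0.884) in HFepa vs. reference and -0.17 ± 0.16 (SE, adjusted p = 0.968) in HFepa vs. HFoleic. The 95% intervals of the difference ran from -6.40% to 43.8%, from -17.5% to 28.8% and from -28.9% to 11.1% in that order, wider than those of miR-378a-3p.

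miR-378c, the most abundant member after miR-378a-3p, had lowest, median and highest levels of 1013, 1294 and 1597 CPM in reference. The same values were 1086, 1346 and 1590 CPM in HFoleic, and 1030, 1182 and 1385 CPM in HFepa. The group ranges again overlapped, with means of 1287 ± 169 (SD, n = 8), 1338 ± 177 (SD, n = 8) and 1222 ± 138 CPM (SD, n = 7). Its log2 fold changes were 0.06 (95% interval -8.82% to 18.6%, adjusted p = 0.708) in HFoleic vs. reference, -0.08 (-17.2% to 8.74%, adjusted p = 0.684) in HFepa vs. reference and -0.13 (-20.3% to 4.58%, adjusted p = 0.916) in HFepa vs. HFoleic.

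miR-378d, with the changed base A6C inside its seed, had lowest, median and highest levels of 157, 226 and 260 CPM in reference. They were 179, 224 and 269 CPM in HFoleic, and 160, 197 and 253 CPM in HFepa. The means of 219 ± 29.4 (SD, n = 8), 227 ± 34.3 (SD, n = 8) and 207 ± 30.9 CPM (SD, n = 7) lay within 1 SD of each other. Its log2 fold changes were 0.05 (95% interval -10.9% to 21.1%, adjusted p = 0.761), -0.08 (-19.4% to 10.8%, adjusted p = 0.705) and -0.14 (-22.4% to 6.71%, adjusted p = 0.946) in the same order.

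miR-378b, the least abundant member, had lowest, median and highest levels of 4.06, 6.71 and 7.61 CPM in reference. They were 7.09, 7.83 and 9.24 CPM in HFoleic, and 4.70, 7.33 and 8.39 CPM in HFepa. The means were 6.39 ± 1.18 (SD, n = 8), 7.98 ± 0.811 (SD, n = 8) and 6.99 ± 1.36 CPM (SD, n = 7). HFoleic lay above most reference libraries but overlapped with the top of their range. HFoleic exceeded reference by 0.32 ± 0.13 (SE) on the log2 scale, an interval of 3.30% to 50.9%, with an unadjusted p of 0.0237 and an adjusted p of 0.116. In the edgeR fit this was the only member with an unadjusted p under 0.05 in a comparison. In HFepa vs. reference its log2 fold change was 0.13 (-10.3% to 33.5%, adjusted p = 0.616) and in HFepa vs. HFoleic -0.19 (-28.1% to 6.90%, adjusted p = 0.916).

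The order of the group means was HFoleic, reference, HFepa for miR-378a-3p, miR-378c and miR-378d, and HFoleic, HFepa, reference for miR-378a-5p and miR-378b. No neighbours in these orders differed beyond the spread between mice. The comparisons share libraries, so their directions are not independent of each other.

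**Figure D2:**
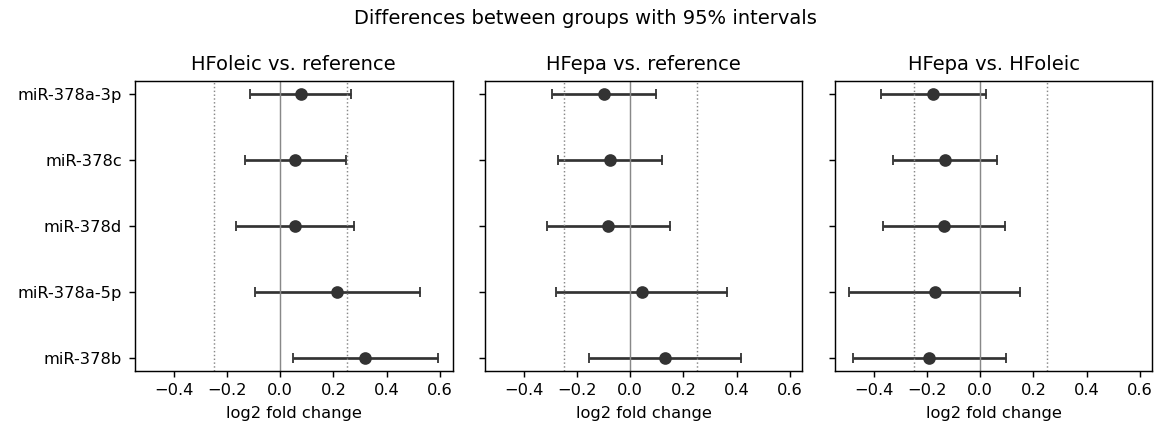
Log2 fold change of each family member in the 3 comparisons, with bars for the 95% interval of the edgeR fit and dotted lines at the threshold of 0.25 on either side of 0. The interval of miR-378b in HFoleic vs. reference, 3.30% to 50.9%, is the one that leaves out 0.

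A miRNA was called when its adjusted p was under 0.05 and its log2 fold change was over 0.25 in size. In HFoleic vs. reference 0 of the 5 members were called, where 12.4% of the 386 tested miRNAs were called, 4.92% higher and 7.51% lower. In HFepa vs. reference 0 of 5 were called, where 15.8% of all were, 5.18% higher and 10.6% lower. In HFepa vs. HFoleic 0 of 5 were called, and 0.0% of all were, where DESeq2 called 0 and limma-voom 1 of all. With edgeR the unadjusted p was under 0.05 for 1, 0 and 0 members, where 28.5%, 28.5% and 5.7% of all miRNAs reached it. DESeq2 called 0 members, where it called 25, 46 and 0 of all 386 miRNAs. Its unadjusted p was under 0.05 for 1, 0 and 0 members, where 95, 98 and 23 of all reached it. Limma-voom called 0 members, where it called 31, 49 and 1 of all 386. Its unadjusted p was under 0.05 for 1, 1 and 2 members, where 87, 121 and 55 of all reached it. These members in limma-voom were miR-378b in HFoleic vs. reference and miR-378d in HFepa vs. reference. In HFepa vs. HFoleic they were miR-378a-3p and miR-378d, with limma-voom adjusted p of 0.275 and 0.304. The groups did not separate fully for any member in any comparison, as against 0.0%, 4.66% and 0.0% of all miRNAs. The median log2 fold change of the 5 members was 0.08, -0.08 and -0.17, and that of all tested miRNAs was -0.00, -0.06 and -0.02.

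Ratios between members within a library do not depend on the scaling between libraries. The arm ratio of miR-378a, that is miR-378a-5p as a percent of miR-378a-3p, lay between 0.452% and 1.02%, with a median of 0.570%. It was 0.580% ± 0.0952 (SD, n = 8) in reference, 0.652% ± 0.193 (SD, n = 8) in HFoleic and 0.638% ± 0.168 (SD, n = 7) in HFepa. The highest ratios were in library 14 of HFoleic and library 19 of HFepa, at 1.02% and 0.891%. In library 14 the 3p arm was low and the 5p arm high, whereas in library 16 both arms were low. The SD of the log2 arm ratio over the 23 libraries was 0.33, where counting error gives 0.08. Although both arms come from 1 hairpin, their levels thus did not keep a fixed ratio. No difference between groups was detected in it, with log2 differences of 0.14 in HFoleic vs. reference, 0.11 in HFepa vs. reference and -0.02 in HFepa vs. HFoleic, and adjusted p of 0.894, 0.894 and 0.907 by two-sided exact permutation tests over 12 ratio comparisons.

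The members from different loci kept closer to miR-378a-3p than its own opposite arm did. miR-378c was 10.5% to 14.4% of miR-378a-3p, with an SD of the log2 ratio of 0.10 against 0.02 from counting. miR-378d was 1.67% to 2.46%, with an SD of 0.13 against 0.04. miR-378b was 0.0492% to 0.0991%, with an SD of 0.27 against 0.24, so that nearly all of its spread is of the size of counting error. How far reads assigned to more than 1 of these near-identical sequences enter the ratios was not tested.

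miR-378c was 12.4% ± 0.447 (SD, n = 8) of miR-378a-3p in reference, 12.3% ± 1.38 (SD, n = 8) in HFoleic and 12.6% ± 0.634 (SD, n = 7) in HFepa. The exact permutation tests gave an adjusted p of 0.894 for each of the 3 comparisons of miR-378c and for each of miR-378d. For miR-378b the ratio was 0.0612% ± 0.00722 (SD, n = 8) in reference and 0.0740% ± 0.0144 (SD, n = 8) in HFoleic, a log2 difference of 0.26 with an exact permutation p of 0.0401 and an adjusted p of 0.481. For miR-378b in HFepa vs. reference the log2 difference was 0.23, with an exact permutation p of 0.0887 and an adjusted p of 0.532.

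The ratios of miR-378c in HFoleic were spread unevenly over the library numbers. The labels number the libraries 1 to 23 without saying what the number stands for. The reference mice hold numbers 1 to 8, HFoleic 9 to 15 and 23, and HFepa 16 to 22. Libraries 9 to 11 of HFoleic had 10.5% to 11.7% and library 12 had 11.2%, whereas libraries 13, 14 and 15 had 13.8%, 14.4% and 13.2% and library 23 had 11.9%. Among libraries 1 to 11, the 3 HFoleic ratios were all below the 8 reference ratios of 11.8% to 13.1%. The log2 difference among them was -0.15, with an exact permutation p of 0.00606, the smallest that 165 arrangements allow, and an adjusted p of 0.0485 over 8 comparisons. This value restates the low ratios of these 3 libraries. The labels do not divide the libraries after number 11. HFoleic library 12, at 11.2%, lay within the range of libraries 9 to 11 but falls in the other set. In that set library 23, at 11.9%, lay just above the lowest reference ratio, and libraries 13 to 15 lay above the highest. Over all libraries the log2 difference was -0.02, with an exact permutation p of 0.719, so no difference between HFoleic and reference is read from it. Among libraries 12 to 23 the log2 difference of HFepa vs. HFoleic was -0.03, with an adjusted p of 0.801 by the exact permutation test. The other 6 comparisons within these sets had adjusted p of 0.703 to 0.813 by exact permutation tests. No HFepa library is numbered below 12 and no reference library above 11, so library number and group cannot be told apart in HFepa vs. reference.

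**Figure D3:**
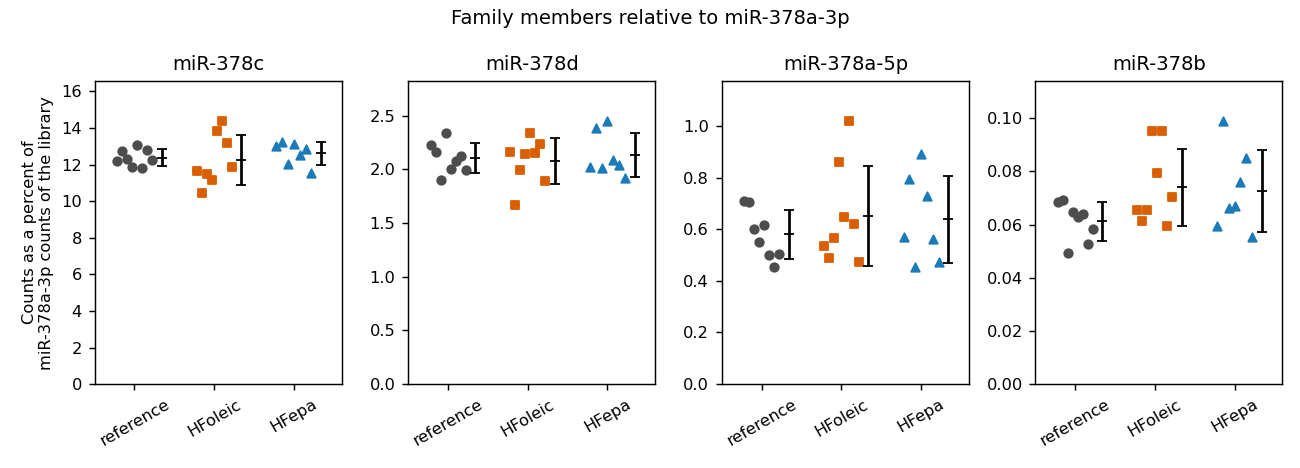
Counts of miR-378c, miR-378d, miR-378a-5p and miR-378b as a percent of the miR-378a-3p counts of the same library, with 1 point per mouse and a bar for the group mean ± SD, on axes that start at 0. The groups overlap in each panel, and the HFoleic ratios of miR-378c reach from 10.5% to 14.4% while the reference ratios stay between 11.8% and 13.1%.

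For the level of miR-378a-3p, the 3 HFoleic libraries numbered 9 to 11 had 11551 to 11888 CPM, inside the range of 8303 to 11927 CPM of the 5 numbered 12 or above. Of these 5, libraries 12 and 14 were below 9 to 11, at 9712 and 8303 CPM. Among libraries 1 to 11 alone miR-378a-3p had a log2 fold change in HFoleic vs. reference of 0.18 ± 0.11 (SE, adjusted p = 0.662), and among libraries 12 to 23 alone that in HFepa vs. HFoleic was -0.11 ± 0.11 (SE, adjusted p = 0.879). For the other 4 members the log2 fold changes within these sets were 0.06 (miR-378a-5p), 0.24 (miR-378b), 0.04 (miR-378c) and 0.06 (miR-378d) in HFoleic vs. reference. In HFepa vs. HFoleic they were -0.25, -0.24, -0.14 and -0.12 in the same order. None of the 5 members was called in either set. Of all tested miRNAs, 0 of 409 were called among libraries 1 to 11 and 0 of 358 among libraries 12 to 23. The absence of calls therefore does not set the members apart from other miRNAs.

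The miRNAs most like miR-378a-3p were sought by the SD, over the 23 libraries, of the log2 ratio of their CPM to its CPM, among the 259 whose mean reached 10 CPM. The median of that SD was 0.32. miR-378c (0.10) and miR-378d (0.13) were the nearest. The 5 nearest miRNAs outside the family were miR-103-3p (0.13), miR-1839-5p (0.15), miR-340-5p (0.15), miR-744-5p (0.16) and miR-1843a-5p (0.17). miR-103-3p, known as a regulator of insulin sensitivity in liver, was thus about as near to miR-378a-3p as miR-378d was. miR-378a-5p had 0.33, with 132 miRNAs outside the family nearer than it. The level of miR-378a-3p varied less than that of most miRNAs, with an SD of log2 CPM of 0.19 against a median of 0.27, and a miRNA that varies little is near to any other that varies little. The libraries share their depth and scaling, so the likeness is a description.

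**Figure D4:**
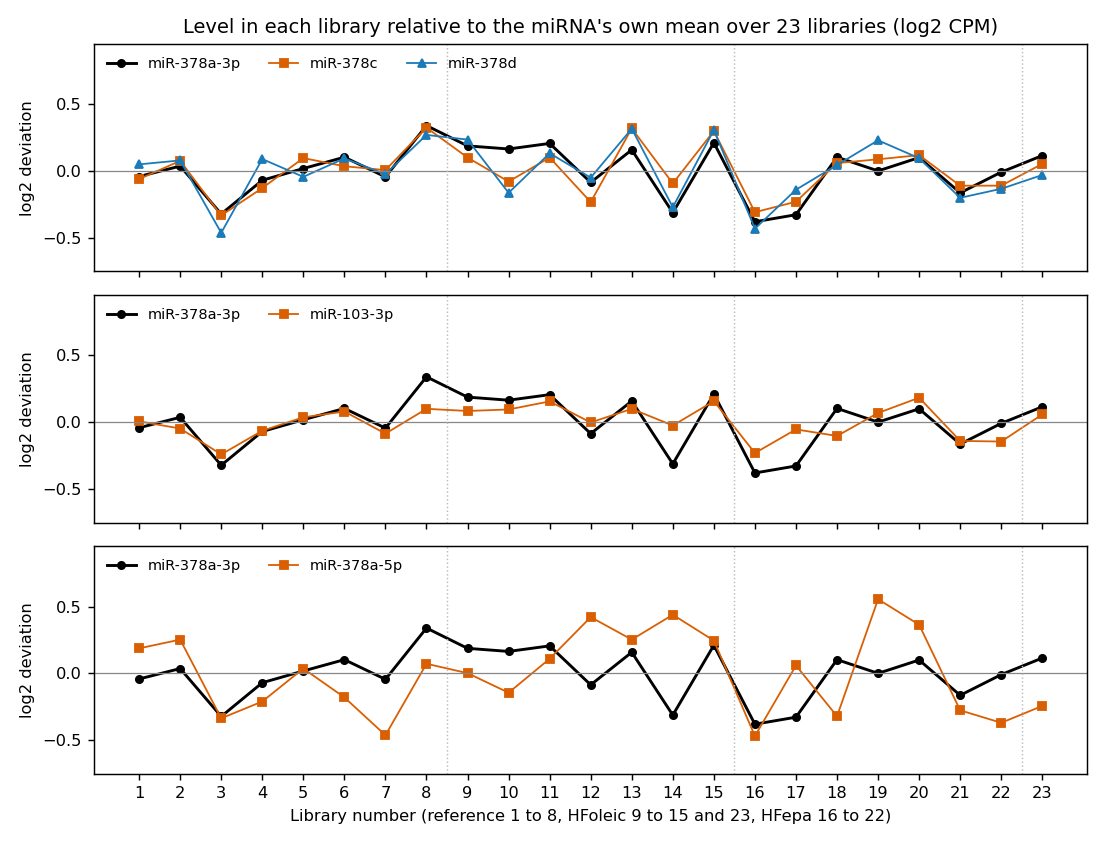
Log2 CPM of miR-378a-3p in each library relative to its own mean over the 23 libraries, beside miR-378c and miR-378d (top), miR-103-3p (middle) and miR-378a-5p (bottom). miR-378c and miR-378d follow miR-378a-3p with an SD of the log2 ratio of 0.10 and 0.13, and miR-378a-5p departs from it with 0.33, most visibly in libraries 12, 14, 18 and 19.

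A list of 27 miRNAs known for glucose or lipid metabolism in liver or fat was set beside the family, and 26 of them were tested. In HFoleic vs. reference 3 were called higher and 1 lower, 4 of 26. Of all tested miRNAs 12.4% were called, 4.92% higher and 7.51% lower, so the list stood near the background. miR-33-5p, which lies in an intron of Srebf2 and represses the cholesterol exporter ABCA1, rose with a log2 fold change of 0.58 ± 0.17 (SE, adjusted p = 0.0278). miR-107-3p, the close relative of miR-103-3p, rose by 0.39 ± 0.12 (SE, adjusted p = 0.0357), and miR-365-3p, of the miR-193b cluster of brown fat, by 0.33 ± 0.11 (SE, adjusted p = 0.0482) on the same scale. miR-128-3p, known to act on cholesterol transport, had a log2 fold change of -0.49 ± 0.14 (SE, adjusted p = 0.0311). In HFepa vs. reference 0 were called higher and 1 lower, 1 of 26, where 15.8% of all were called, 5.18% higher and 10.6% lower. That 1 was miR-128-3p, at -0.63 ± 0.15 (SE, adjusted p = 0.00872). By the edgeR test, miR-27b-3p missed a call by the fold change alone in HFoleic vs. reference, at 0.18 (adjusted p = 0.0288). In HFepa vs. reference miR-26a-5p, at 0.22 (adjusted p = 0.0340), and miR-27b-3p, at 0.17 (adjusted p = 0.0414), missed a call in the same way. In HFepa vs. HFoleic 0 were called by edgeR, 1 had an unadjusted p under 0.05, and DESeq2 and limma-voom also called 0.

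The median log2 fold change of the list was 0.03, -0.00 and 0.00 in the same order, and that of all tested miRNAs -0.00, -0.06 and -0.02. The number of calls of the list in HFoleic vs. reference changed with single libraries and with the fit. Over the 23 fits without 1 library, miR-33-5p stayed called in 20, miR-107-3p in 17, miR-128-3p in 15 and miR-365-3p in 10. The count of 4 was 0 without library 5 or 14, 1 without library 4, 13 or 15, and 2 without library 1, 12, 18 or 23, and it was 0 with a term for the library number. Over the other alternatives it lay between 0 and 6. The count of 1 in HFepa vs. reference was 2 without library 1, 2, 6, 7 or 19 and 2 with the library total in place of TMM. miR-128-3p was called there in each of the 23 fits without 1 library. The count was 0 with quantile normalization in limma. It was also 0 with the library-number term, in which the log2 fold change of miR-128-3p was 0.01. In that comparison the term cannot separate group from library number.

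The libraries held 5242218 to 8139344 counts in reference, 4340903 to 7220112 in HFoleic and 3725432 to 4947990 in HFepa, so HFepa was sequenced least deeply. The 5 hepatocyte miRNAs, which mark liver tissue, were abundant in every library and together had 187922 to 357628 CPM. Library 3 of reference stood apart, with a TMM factor of 1.26 and the lowest hepatocyte sum. It had the lowest reference CPM of miR-378a-3p, miR-378b, miR-378c and miR-378d, but its share of miR-378a-3p in all counts, 1.04%, was within the reference range. The 5 biliary miRNAs summed to 1094 CPM there and to at most 333 CPM elsewhere, with ranges of 151 to 1094 CPM in reference, 157 to 333 CPM in HFoleic and 191 to 263 CPM in HFepa, and 0 of the 5 were at 0. Library 3 was also highest in the summed leukocyte miRNAs, at 2923 CPM, and in those of stellate cells and fibroblasts, at 42525 CPM. Without it HFoleic vs. reference had log2 fold changes of 0.04 (miR-378a-3p), 0.25 (miR-378b), 0.01 (miR-378c) and -0.00 (miR-378d). In that fit 0 members were called, where 44 of all 385 tested miRNAs were.

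miR-378a is also known to be abundant in muscle and brown fat. Muscle miRNAs summed to 219 CPM in library 4 and to at most 12.4 CPM in the others, over the 6 in the table, of which 0 were at 0. Pancreas miRNAs summed to 2021 CPM in library 5 and to at most 57.4 CPM elsewhere, over 4 listed miRNAs of which 0 were at 0. Libraries 4 and 5 had 9822 and 10438 CPM of miR-378a-3p, both near the reference median. The summed brown fat miRNAs lay between 157 and 580 CPM and those of red blood cells between 6390 and 15794 CPM, and both overlapped between the groups. The pair of endothelial miRNAs summed to 13884 to 20326 CPM in reference, 18211 to 26002 CPM in HFoleic and 19642 to 23667 CPM in HFepa, so that library 4 was the only reference library above the lowest HFepa library. Of this pair, miR-126a-5p, chosen after its values were seen, was called higher in HFepa vs. reference by edgeR (adjusted p = 0.0416). Its log2 fold change of 0.251 ± 0.08 (SE) was just over the threshold of 0.25. The other miRNA of the pair was not called, and the median log2 fold change of the pair was 0.19. Of all tested miRNAs 5.18% were called higher in this comparison. The part of other cell types in the level of the family was not tested.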

How the data were processed

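Small RNA libraries (TruSeq Small RNA kit) of mouse liver were assigned to groups by the group label of each sample, with each mouse as 1 library and 1 replicate. According to the methods, the authors removed adapters with the FASTX-Toolkit, aligned reads with Bowtie in ncPRO-seq and counted mature miRNAs of miRBase 22.1. The processing notes of the labels name bcl2fastq 2.17.1.14 and mm10, while the methods name GRCm38.p6 and also mm9. The authors deposited the counts per mature miRNA without normalization, and these counts were used here. Another 23 columns of values per sample, the counts scaled by the authors, and their columns of group means, fold changes and p-values were not used.

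Of 1218 miRNAs, 386 passed edgeR's filterByExpr. TMM factors were computed, the 3 groups were fitted together, and p-values of edgeR's quasi-likelihood test were adjusted over all 386 by Benjamini-Hochberg. The methods name DEGseq, which works on pooled reads. Calls needed an adjusted p under 0.05 together with a log2 fold change over 0.25 in size. An SE is the log2 fold change divided by the root of F. Ratios were tested by two-sided exact permutation over libraries, for members with at least 10 counts in every library. Loci were read from the GENCODE annotation and sequences from RefSeq. R 4.3.3, edgeR 4.0.16, DESeq2 1.42.0, limma 3.58.1, Python 3.11.15 and scipy 1.17.1 were used.

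The members, the lists, the tests and the alternatives were chosen with earlier results of these data known. Named were the 5 members, the 5 miRNAs outside the family most like miR-378a-3p, the called miRNAs of the metabolic list, and marker lists whose sum stands apart in a library. Also named were miRNAs of the metabolic list that missed a call by the fold change alone. The alternatives were DESeq2, limma with quantile normalization, limma-voom, library size or upper-quartile factors in place of TMM, other filters, fits of 2 groups, a term that divides library numbers 1 to 11 from 12 to 23, fits within these sets, the members other than miR-378a-5p summed into 1 row, medians of ratios, a pseudocount of 1 in the ratios, and each library left out in turn. The edgeR test was checked on simulated counts of 386 miRNAs. In HFoleic and HFepa vs. reference it recovered 89 and 85 of 100 simulated 2-fold changes. Of 100 simulated 1.4-fold changes it recovered 52 and 51, so many changes of that size would be missed. Libraries of a group differed by more than sampling noise, with a chi-square per degree of freedom of at least 33.7, so each was kept as its own replicate. Nothing in the labels says that mice came from separate litters, so shared litters could not be accounted for. The tests took the spread between these mice as the error and treated each mouse as independent.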

Additional observations from a re-analysis of the deposited data

How the results depend on the processing

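None of the 5 members was called under any alternative that was fitted: another normalization, filter or tool, the library numbers, or any 1 library left out. Apart from the fits without 1 library, 141 member values kept their direction and 7 did not. In HFoleic vs. reference, the library total in place of TMM gave log2 fold changes of -0.012 for miR-378c and -0.0082 for miR-378d, and it moved the median of all miRNAs to -0.08, and to -0.12 in HFepa vs. reference. In the latter, quantile normalization gave 0.021 for miR-378d, limma-voom -0.074 for miR-378a-5p, and the library-number term 0.058 for miR-378a-3p, -0.21 for miR-378a-5p and -0.0030 for miR-378b. In HFepa vs. reference the library-number term rests on the HFoleic libraries alone, so its values do not separate group from library number. The cause of these changes of direction was not tested. Depth limits miR-378b, with 21 to 53 counts a library.

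Without 1 library, 342 member values kept their direction and 3 did not: miR-378d in HFoleic vs. reference ran from -0.0011 to 0.12 and was negative without library 3, and miR-378a-5p in HFepa vs. reference ran from -0.072 to 0.13 and was negative without library 19 or 20. Of the ratios to miR-378a-3p, 261 values kept their direction and 15 did not. In HFepa vs. HFoleic they ran from -0.11 to 0.076 for miR-378a-5p, -0.11 to 0.028 for miR-378b and -0.0026 to 0.067 for miR-378d. In HFoleic vs. reference they ran from -0.056 to 0.0096 for miR-378c and -0.051 to 0.019 for miR-378d, and the latter ran from -0.019 to 0.040 in HFepa vs. reference.

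Within the library numbers, the ratio in HFoleic vs. reference was -0.11 for miR-378a-5p and -0.15 for miR-378c, which then passed the threshold, and in HFepa vs. HFoleic it was -0.025 for miR-378c and -0.017 for miR-378d. HFepa and reference share no such set, so they got no value. With medians, the ratio of miR-378a-5p was -0.012 in HFepa vs. reference, and that of miR-378d was 0.033 in HFoleic vs. reference, -0.043 in HFepa vs. reference and -0.075 in HFepa vs. HFoleic.

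With the library-number term, miR-128-3p turned to 0.0081 in HFepa vs. reference and 0.13 in HFepa vs. HFoleic, and to 0.13 in the latter among libraries 12 to 23 alone. Of all miRNAs, 48 and 61 were called in HFoleic and HFepa vs. reference. DESeq2 called 25 and 46, quantile normalization 10 and 25, limma-voom 31 and 49, no filter 29 and 43, the fit of 2 groups 7 and 40, and the library-number term 1 and 0. The first count was 12, 24, 21 and 20 without library 5, 13, 14 or 15, and the second 36, 38, 38 and 32 without library 5, 16, 18 or 22. No paired analysis was possible because the labels give no replicate numbers shared between groups.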
